A study of Mus musculus with 2 samples.

Results

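Interferon response genes are the genes that cells switch on when interferons, the secreted proteins of antiviral defence, bind their receptors. Their transcripts were followed in single bone marrow progenitors of wild-type mice and of mice with a GATA-1 mutation knock-in. The set was a list of 36 gene symbols, looked up in the 31053 rows of the count files. Of these, 35 had a row, and Mx2 was not analysed here. Ifit3 held 37 UMIs over both libraries, under the minimum of 50, and 34 genes passed. Each UMI (unique molecular identifier) stands for 1 RNA molecule that was captured. The minimum used the sum over both libraries, so a gene could pass through 1 library alone, as Mx1 did with 55 wild-type and 15 knock-in UMIs.

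The study sorted Lin- Kit+ cells, which lack mature lineage markers and carry the receptor Kit, from mouse bone marrow and sequenced them by droplet 3' RNA sequencing. It set out to compare the marrow's cell makeup and its gene regulation in mutant and normal mice. The WT library came from wild-type mice and the KI library from mice with the GATA-1 mutation named 2RA in the study's title, and age, sex, strain and the number of mice pooled were not given in the sources used here. There was 1 library per genotype, so no difference below has a replicate check, no test across samples could be made, and every interval is a 95% interval for counting error only.

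After filtering, 5489 wild-type and 5492 knock-in cells remained, with 64350027 and 43595969 UMIs and medians of 9635 and 5279 UMIs per cell. Kit was detected in 64.5% and 56.0% of them. The libraries shared 10 cell barcodes. Cells were grouped without the interferon genes into 7 classes with at least 100 cells in each library, and each class name means only that the cells resembled that type by marker genes. The classes (wild-type and knock-in cells) were early erythroid (1403 and 1664), megakaryocyte (261 and 362), basophil and mast (161 and 188), stem and multipotent (832 and 817), lymphoid-primed (254 and 320), monocyte progenitor (1027 and 399) and neutrophil progenitor (545 and 171). Early erythroid cells of the libraries lay in largely separate clusters, wild-type cells mainly in clusters 2 (1034 cells) and 12 (282), knock-in cells in clusters 4 (818) and 6 (730). A further 1005 and 1551 cells stayed unnamed, and 1 and 20 resembled late erythroid cells. These enter the values over all cells, and otherwise only where clusters are counted or they are named.

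Type I interferons bind the receptor chains Ifnar1 and Ifnar2, whose kinases Jak1 and Tyk2 activate transcription factors such as Stat2. Stat2 acts with Irf9 in a complex that binds a DNA element, the interferon-stimulated response element, in front of its target genes. Interferon-gamma acts through a different element and drives many of the immunity-related GTPases. In the marrow, interferons are known for waking quiescent stem cells, and stem cells are known to hold part of this programme at rest.

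The element's core can be written GAAANNGAAA, or TTTCNNTTTC on the other strand. Both spellings were searched from 250 bases before to 50 after the gene starts in RefSeq windows (GRCm38.p6), and overlapping matches were each counted. Of the 36 listed genes 25 had a window, and 14 of them held a match (56%), against 3.99% of 27025 genes with a window. The windows printed here belong to genes whose levels the results turn on. They include genes that were lower in the knock-in library (Bst2, Oas1a, Rsad2, Ifit1, Igtp) and genes that were not (Isg15 and Trim30a over all cells), and matches are in capitals. All sequences run 5′ to 3′ on the gene's own strand and lie before the gene start. A match is a run of letters, not a shown binding site.
Bst2 (chr8:71537572-71537617, minus strand): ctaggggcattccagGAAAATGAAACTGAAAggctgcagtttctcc
Oas1a (chr5:120907526-120907560, minus strand): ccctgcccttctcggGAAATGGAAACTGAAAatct
Rsad2 (chr12:26456548-26456587, minus strand): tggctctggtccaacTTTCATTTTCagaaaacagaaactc
Ifit1 (chr19:34640770-34640828, plus strand): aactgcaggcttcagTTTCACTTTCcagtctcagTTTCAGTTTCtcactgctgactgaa
Igtp (chr11:58199507-58199546, plus strand): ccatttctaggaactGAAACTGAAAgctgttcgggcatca
Isg15 (chr4:156200860-156200911, minus strand): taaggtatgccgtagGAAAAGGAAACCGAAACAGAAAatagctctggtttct
Trim30a (chr7:104465205-104465244, minus strand): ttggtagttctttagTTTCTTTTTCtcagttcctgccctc

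Levels are given as CPM, a gene's UMIs scaled to counts per 1000000 UMIs of the same library and class. In 3' counting a molecule gives 1 UMI whatever its length. Interferon response genes were most abundant in lymphoid-primed and in stem and multipotent cells. Summed over the 34 genes, these held 979 and 894 CPM in wild type. Basophil and mast cells followed with 718 CPM and megakaryocyte cells with 652 CPM. Early erythroid cells held 543, monocyte progenitors 483 and neutrophil progenitors 469.9 CPM. Within the wild-type stem and multipotent class, cluster 10 held 713 CPM, about the level of basophil and mast cells. Of the unnamed wild-type clusters, cluster 19 (30 cells) held 1143 CPM, cluster 3 (584 cells) 886 CPM and cluster 20 (331 cells) 726 CPM. In the wild-type library 13 of the 34 genes had their highest class level in stem and multipotent cells and 13 in lymphoid-primed cells. In the knock-in library the numbers were 15 and 8, and 21 of 34 peaked in one of those 2 classes in both libraries. Monocyte progenitors were the lowest class for 18 genes in wild type and 14 in the knock-in.

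Some genes were far from this common order. Isg20, an exonuclease that degrades single-stranded RNA (ENSMUSG00000039236, chromosome 7, 78913424 to 78920396, plus strand, mm10), was an early erythroid transcript in both libraries. Early erythroid cells held 76.4 CPM (wild type) and 74.7 CPM (knock-in), whereas megakaryocyte cells held 27.5 and 19.0 CPM and monocyte progenitors 3.82 and 1.49 CPM. Ifi27l2a, a small membrane protein with close relatives in the genome, had the widest wild-type range among genes with a UMI in every class. It ran from 64.7 CPM (110 UMIs) in lymphoid-primed cells and 28.2 CPM in stem and multipotent cells to 0.603 CPM (18 UMIs) in early erythroid cells, and in the knock-in from 45.2 to 1.26 CPM. Ifi47, a GTPase, was highest in wild-type megakaryocyte cells at 97.0 CPM and lowest in early erythroid cells at 30.7 CPM. Trim30a, a ubiquitin ligase of a gene family with close copies, kept 32.1 CPM in wild-type monocyte progenitors, close to the 37.9 CPM of stem and multipotent cells.

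Several sensor and effector genes were lowest in monocyte progenitors. Rtp4, a transporter-like membrane protein, stood at 49.96 CPM in wild-type lymphoid-primed cells, 40.5 CPM in stem and multipotent cells and 1.83 CPM in monocyte progenitors. Oasl2, of the 2'-5'-oligoadenylate synthetase family, stood at 30.9 CPM in stem and multipotent cells and 1.74 CPM in monocyte progenitors. Ddx58, the RNA sensor RIG-I, stood at 26.5 and 2.49 CPM in the same classes. Samd9l, a growth-restraining factor, was as uneven, with 26.7 CPM in basophil and mast cells and 0.913 CPM in monocyte progenitors. At the other end, Ifi35 and Bst2 differed least across classes, with wild-type highest-to-lowest ratios of 1.56 and 1.89.

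**Figure D1:**
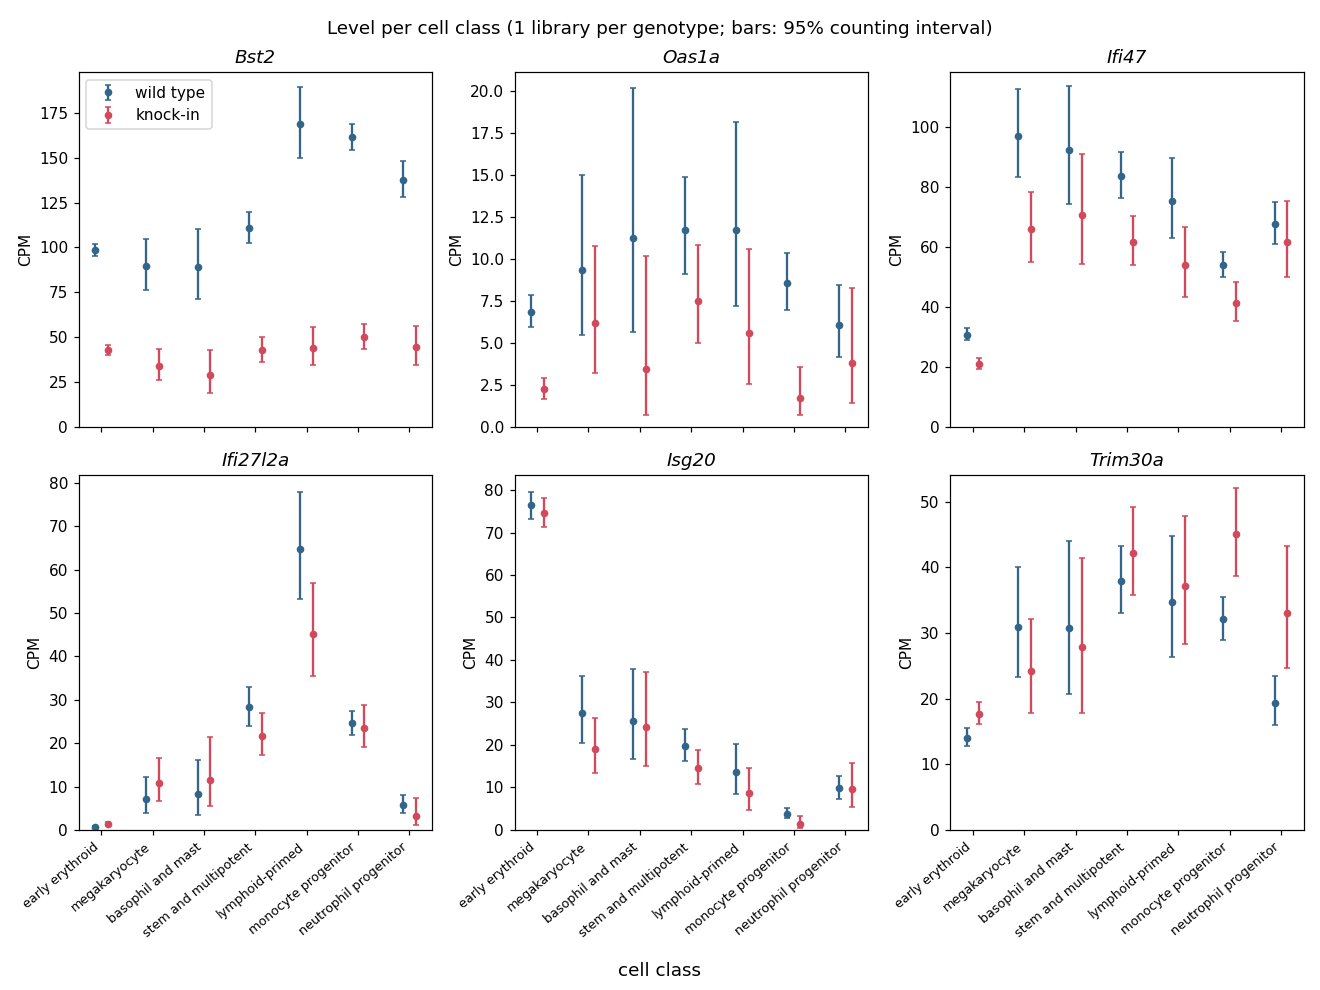
Level of 6 interferon response genes (CPM, vertical axis from 0) in 7 cell classes (horizontal axis), wild type in blue and knock-in in red, 1 library each. Points are levels of summed UMIs and bars exact 95% Poisson intervals. Bst2 is lower in the knock-in in every class, Isg20 stands out in early erythroid cells in both libraries, and Trim30a is higher in the knock-in in monocyte and neutrophil progenitors.

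Bst2 differed most evenly between the libraries. It encodes tetherin, a membrane protein that holds budding enveloped viruses on the cell surface (ENSMUSG00000046718, chromosome 8, 71534255 to 71537456, minus strand, mm10). Over all cells its level was 118 CPM (7595 UMIs) in wild type and 41.4 CPM (1805 UMIs) for the knock-in library, a log2 ratio of -1.51 (-1.59 to -1.44).

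By class, Bst2 levels in wild type and knock-in were 98.5 and 42.7 CPM in early erythroid, 89.8 and 33.9 CPM in megakaryocyte, and 89.3 and 28.97 CPM in basophil and mast cells. They were 111 and 42.7 CPM in stem and multipotent, 169 and 43.98 CPM in lymphoid-primed, 161 and 49.995 CPM in monocyte progenitor, and 138 and 44.4 CPM in neutrophil progenitor cells. All 7 knock-in levels lay under all 7 wild-type levels, and the log2 ratios ran from -1.94 in lymphoid-primed cells to -1.21 in early erythroid cells. All 7 intervals lay below 0. Each of the 11 clusters with at least 30 cells of each library also had less Bst2 among its knock-in cells. With every cell thinned to 3000 UMIs, a Bst2 UMI was found in 29.1% (27.8 to 30.3) of wild-type cells and 10.9% (9.94 to 11.8) of those from the knock-in, or 62.8% and 24.2% without thinning. No class served as one that lacks Bst2, so no background share can be set beside these.

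**Figure D2:**
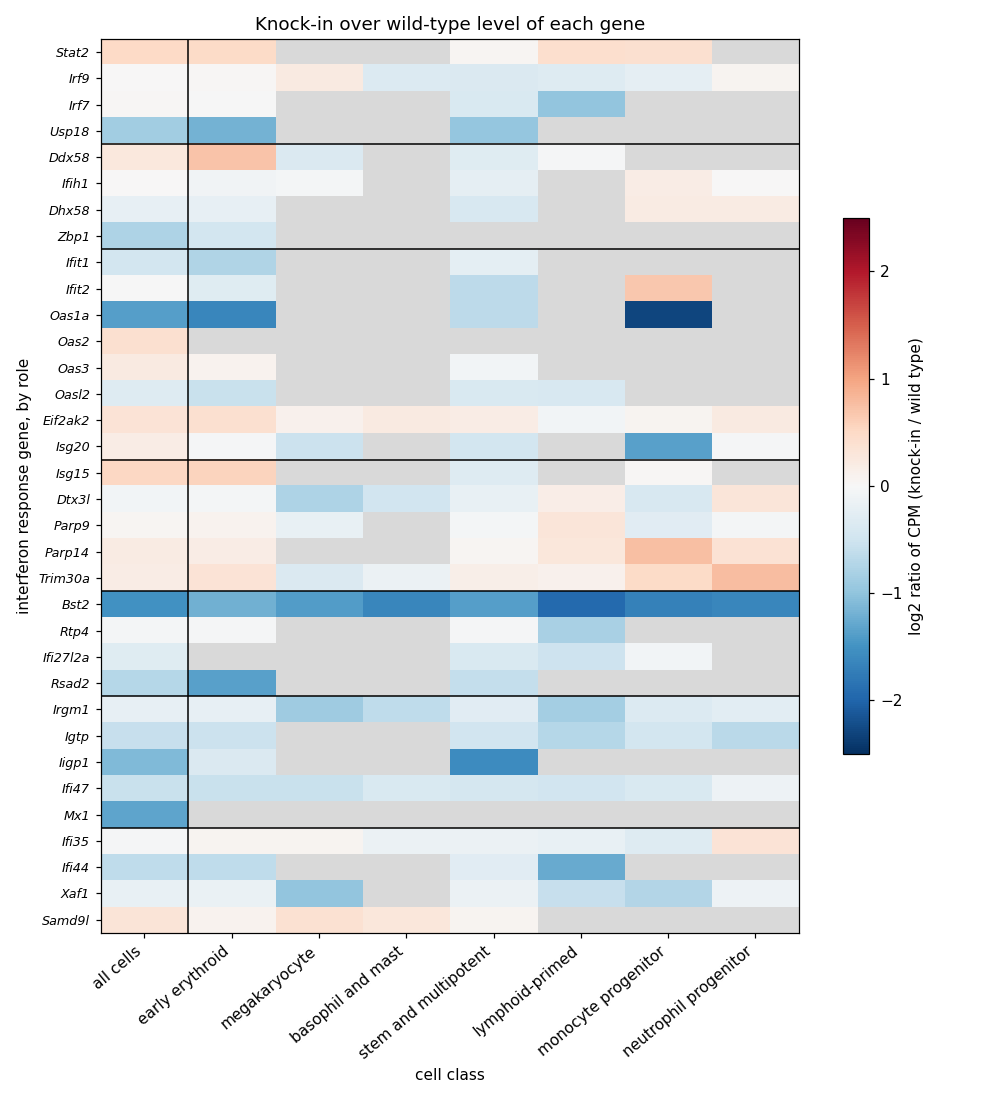
Log2 ratio of CPM (knock-in over wild type; colour) for 34 interferon response genes in rows, ordered by role with lines between roles, over all cells and in 7 classes in columns. Grey marks fewer than 50 UMIs over both libraries. Bst2 is blue in every column, and the GTPase rows are blue wherever they have a value, whereas Eif2ak2, Trim30a and Stat2 are mostly red.

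Over all cells, 20 of the 34 genes were lower and 14 higher in the knock-in. A difference of 1.5-fold or more was counted as called. Lower calls took in 8 genes (Usp18, Zbp1, Oas1a, Bst2, Rsad2, Iigp1, Mx1 and Ifi44), or 23.5%, where 6.54% of all 12011 genes with 50 or more UMIs were called lower. Higher calls took in 0 genes, where 6.69% of all genes were called higher. The median log2 ratio of the 34 was -0.06, against 0.07 for all genes.

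The values over all cells mix classes whose shares differed, such as monocyte progenitors, which made up 18.7% (wild type) and 7.27% (knock-in). With the 7 classes given equal weight, which was added after the data were seen, 28 of 34 genes were lower, 11 of them by 1.5-fold or more, and none was 1.5-fold higher. Of all genes 5.89% were called lower and 4.77% higher under this weighting. The median of the 34 was then -0.36, against 0.05 for all genes, of which 42.4% were lower. Of these 28, 9 had been higher over all cells. In bulk sums of this kind, fewer cells with a transcript and less of it per cell cannot be told apart.

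Stem and multipotent cells, where many of the genes were highest, had 26 of 31 genes lower in the knock-in. The median was -0.30, against 0.03 for all genes. The 6 called lower were Usp18, Ifit2, Oas1a, Bst2, Rsad2 and Iigp1, or 19.4%, where 4.52% of all genes were, and none was called higher, where 3.51% of all genes were. Iigp1, an immunity-related GTPase that attacks the vacuoles of intracellular parasites, was furthest from equality here. Its wild-type level was 15.1 CPM (86 UMIs) and its knock-in level 5.10 CPM (19 UMIs), a log2 ratio of -1.56 (-2.36 to -0.84). Of the most abundant genes, Ifi47 stood at 83.6 and 61.7 CPM (-0.44, -0.67 to -0.21), Rtp4 at 40.5 and 39.7 CPM, and Eif2ak2, the kinase PKR that halts translation on double-stranded RNA, at 48.4 and 55.0 CPM. The intervals of the last 2 included 0. Both clusters of the class held both libraries and had lower summed levels in the knock-in, 1104 and 803 CPM in cluster 0 and 713 and 567 CPM in cluster 10. Markers of other cells went both ways in this class. Late erythroid markers (12 of 12 with a UMI) were higher in the knock-in, at 82.6 and 159 CPM. B cell markers (4 of 8) stood at 39.97 and 45.6 CPM, and T and NK cell markers (4 of 7) at 235 and 228 CPM. Other marker groups were lower, as most of the interferon genes were. Dendritic cell markers (6 of 7 with a UMI, Cd209a at 0) summed to 66.4 and 33.8 CPM and macrophage markers (7 of 7) to 32.1 and 14.2 CPM. Plasmacytoid dendritic cell markers (3 of 7, with Siglech, Klk1, Pacsin1 and Ly6d at 0) had 17 and 2 UMIs, and Elane stood at 288 and 105 CPM. Their part in the result was not tested. With doublets kept, Oas1a stood at -0.55 here and was no longer called.

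In lymphoid-primed cells 14 of 19 genes were lower in the knock-in, with a median of -0.40 against 0.04 for all genes. The 6 called lower (Irf7, Bst2, Rtp4, Irgm1, Igtp and Ifi44) made up 31.6%, where 4.77% of all genes were called lower, and no gene was called higher, where 4.74% of all genes were. Ifi44, a cytoplasmic protein of unclear function, stood at 28.2 CPM (48 UMIs) and 11.8 CPM (19 UMIs), a log2 ratio of -1.26 (-2.11 to -0.47). The calls of Rtp4 and Irgm1 depended on the processing. Rtp4 went from -0.81 to -0.36 with doublets kept and to -0.34 when clusters came from wild type alone and knock-in cells were assigned to them, which also took Irgm1 from -0.85 to -0.42. Irf7, the factor that amplifies type I interferon production, stood at 31.7 and 16.1 CPM (-0.98, -1.71 to -0.28). The most abundant genes beside Bst2 were Ifi47 at 75.2 and 53.9 CPM (-0.48, -0.89 to -0.08), Ifi27l2a at 64.7 and 45.2 CPM (-0.52, -0.96 to -0.08) and Eif2ak2 at 50.6 and 48.3 CPM, the last with an interval that included 0. Markers of plasmacytoid dendritic cells, which make interferon and hold much Irf7 and Bst2, moved the same way. The 7 markers summed to 27.6 CPM (47 UMIs) in wild type and 16.7 CPM (27 UMIs) in the knock-in in this class, with Klk1, Upb1 and Ly6d at 0. Their part in the result was not tested. All 7 of these markers were at 0 in megakaryocyte and in basophil and mast cells.

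Early erythroid cells split by gene. Of 31 genes 20 were lower and 11 higher, with a median of -0.09 against 0.04 for all genes. Most cells of this class lay in clusters that held 1 library almost alone. In the 2 clusters with 30 or more cells of each, the summed level was 580 and 577 CPM (cluster 12) and 453 (394 to 519) and 599 (527 to 679) CPM (cluster 13), and the median was 0.03, so the direction of the class turned there. The 6 called lower (Usp18, Ifit1, Oas1a, Bst2, Rsad2 and Ifi44) made up 19.4%, where 4.58% of all genes were called lower. Ddx58 alone was called higher (3.23%), where 8% of all genes were. Oas1a, an enzyme that makes the 2'-5' oligoadenylates that activate RNase L, stood at 6.87 CPM (205 UMIs) and 2.23 CPM (55 UMIs), a log2 ratio of -1.62 (-2.08 to -1.19). Usp18, the protease that removes Isg15 from proteins and damps the receptor, stood at 5.26 and 2.31 CPM (-1.19, -1.65 to -0.74). Rsad2, the antiviral enzyme viperin, stood at 3.55 and 1.38 CPM (-1.36, -1.97 to -0.80). Ifi44 went from -0.64 to -0.56 without the 3 highest cells of each library, which ended its call.

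Other genes in the same cells were level or went the other way. Ddx58 went from 4.19 CPM in wild type to 6.86 CPM (0.71, 0.37 to 1.06). It was nonetheless lower in 10 of the 11 clusters with at least 30 cells of each library. Isg15, the ubiquitin-like modifier, stood at 7.34 and 10.8 CPM (0.56, 0.30 to 0.83) and Eif2ak2 at 40.6 and 53.5 CPM (0.40, 0.29 to 0.51). Isg20 stood at 76.4 and 74.7 CPM and Ifi35 at 39.5 and 41.3 CPM, both with intervals that included 0. RNA of myeloid granule genes moved with the lower group: Mpo stood at 110 and 30.1 CPM and Elane at 70.8 and 19.8 CPM in these cells, and its part in the result was not tested.

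In monocyte progenitors 12 of 20 genes were lower, with a median of -0.26 against 0.06. Oas1a, Isg20, Bst2 and Xaf1 were called lower (20%, where 4.76% of all genes were) and Ifit2 and Parp14 higher (10%, where 4.55% were). Oas1a stood at 8.55 CPM (103 UMIs) and 1.73 CPM (7 UMIs), a log2 ratio of -2.30 (-3.65 to -1.21). Isg20 stood at 3.82 and 1.49 CPM (-1.36, -2.88 to -0.13), and Car1, an early erythroid gene, moved with it there (72.4 and 23.3 CPM), a part that was not tested. Trim30a stood higher in the knock-in, at 32.1 and 45.05 CPM (0.49, 0.23 to 0.75). Ifi47 stood at 53.9 and 41.3 CPM and Ifi35 at 34.8 and 27.7 CPM.

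Neutrophil progenitors showed no common direction. Of 15 genes 8 stood above and 7 below the wild-type level; the median was 0.02, against 0.10 for all genes. Bst2 and Igtp were called lower (13.3%, where 4.5% of all genes were) and Trim30a higher (6.67%, where 8.42% were). Trim30a stood at 19.4 and 33.0 CPM (0.77, 0.26 to 1.26), while Ifi47 (67.6 and 61.6 CPM), Ifi35 (31.0 and 39.4 CPM) and Eif2ak2 (27.2 and 31.7 CPM) had intervals that included 0.

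Megakaryocyte cells had 10 of 14 genes lower, with a median of -0.35 against 0.03. Dtx3l, Bst2, Irgm1 and Xaf1 were called lower (28.6%, where 4.68% of all genes were), and no gene was called higher, where 3.98% of all genes were. With doublets kept, the Irgm1 ratio went from -0.89 to -0.33 and its call was lost. The 5 Mpo-positive myeloid markers, all with a UMI, fell with them from 882 to 362 CPM, among them Mpo at 257 and 76.1 CPM and Elane at 183 and 44.2 CPM, and their part was not tested. Ifi47 stood at 97.0 and 65.8 CPM (-0.56, -0.90 to -0.22), whereas Eif2ak2 (37.5 and 40.1 CPM) and Ifi35 (32.5 and 33.9 CPM) were level within counting error. Basophil and mast cells had counts for 9 genes only, of which 7 were lower, with a median of -0.35 against 0.05. Bst2 and Irgm1 were called lower (22.2%, where 5.96% of all genes were) and none higher, where 6.83% of all genes were. Irgm1, a GTPase of membrane remodelling, stood at 45.1 and 29.0 CPM (-0.64, -1.41 to 0.10), Ifi47 at 92.3 and 70.7 CPM and Ifi35 at 35.9 and 32.4 CPM, all 3 with intervals that included 0. Dendritic (5 of 7 with a UMI, Xcr1 and Cd209a at 0) and macrophage markers (7 of 7) were lower there too, at 45.1 and 24.3 CPM and at 47.2 and 17.4 CPM, and their part was not tested.

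By role, the GTPases and the membrane-associated genes each had 1 direction by sign, in many cases with an interval that included 0. Of all genes, 38.2% (neutrophil progenitor) to 46.3% (megakaryocyte) were lower per class. The GTPases include the immunity-related GTPases Irgm1, Igtp, Iigp1 and Ifi47, and the dynamin-like Mx1. All GTPases with 50 or more UMIs in a class were lower in the knock-in in that class, 4 of 4 in early erythroid and in stem and multipotent cells and 3 of 3 in lymphoid-primed, monocyte and neutrophil progenitor cells. Irgm1 and Ifi47 were lower in 7 of 7 classes, with log2 ratios from -0.89 to -0.20 and from -0.56 to -0.13. Of the 7 intervals, 3 of Irgm1 and 5 of Ifi47 lay below 0. Igtp, which has close relatives, was lower in 5 of 5 classes, with 2 intervals below 0. It stood over all cells at 13.2 and 8.88 CPM (-0.57, -0.75 to -0.40). Mx1 had enough UMIs only over all cells, with 0.855 and 0.344 CPM (-1.31, -2.24 to -0.47).

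Membrane-associated genes (Bst2, Rtp4, Ifi27l2a and Rsad2) were likewise lower wherever they had 50 UMIs, 4 of 4 in stem and multipotent and 3 of 3 in early erythroid and lymphoid-primed cells. Just under that minimum, Ifi27l2a in early erythroid cells went the other way, with 18 UMIs in wild type and 31 in the knock-in. Bst2 had 7 of 7 intervals below 0, but Rtp4 and Ifi27l2a each had 1 of 3 and Rsad2 1 of 2. The ratios nearest 0 were -0.02 for Rtp4 and -0.06 for Ifi27l2a. Ubiquitin-like and ADP-ribosyl modifiers (Isg15, Dtx3l, Parp9, Parp14 and Trim30a) went both ways. They had 4 of 5 genes higher over all cells and in early erythroid cells, 4 of 4 in lymphoid-primed, 3 of 4 in neutrophil progenitor and 3 of 5 in monocyte progenitor cells. In stem and multipotent cells 2 of 5 were higher, and in megakaryocyte (3 genes) and basophil and mast cells (2 genes) all were lower. With the classes weighted equally only Trim30a was higher (0.18). Isg15 then stood at -0.24, Dtx3l at -0.16, Parp14 at -0.04 and Parp9 at -0.03. Among the signalling genes, Stat2 was higher in the 4 classes where it had 50 UMIs, with log2 ratios from 0.05 to 0.47 and 1 interval above 0. Over all cells Stat2 stood at 8.36 and 11.9 CPM (0.50, 0.33 to 0.68). Its partner Irf9 was level over all cells, at 26.5 and 26.8 CPM, but stood at -0.18 with the classes weighted equally. By class, Irf9 was lower in 4 of 7, with 1 interval below 0. In stem and multipotent cells, its highest class, it stood at 38.4 and 29.8 CPM.

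Among the 4 sensors over all cells, Ifih1 (MDA5, a sensor of long double-stranded RNA) stood at 15.6 and 15.7 CPM. Dhx58 (LGP2, their regulator) stood at 9.09 and 7.87 CPM (-0.21, -0.41 to -0.01) and Zbp1, a sensor of Z-form nucleic acids, at 2.92 and 1.72 CPM (-0.76, -1.17 to -0.37). The oligoadenylate synthetases differed over all cells. Against the lower Oas1a, Oas3 stood at 3.42 and 3.99 CPM (0.22, -0.07 to 0.52). Oas2 stood at 0.917 and 1.22 CPM (0.41, -0.16 to 0.97), and Oasl2 at 7.54 and 6.01 CPM (-0.33, -0.55 to -0.11). The intervals of Oas3 and Oas2 included 0, and Oas2 had only 59 and 53 UMIs. With the classes weighted equally, the sign of Oas2 turned, to -0.74. Oas3 then stood at 0.14, Oasl2 at -0.39 and Oas1a at -1.11. Oas2 was lower in 7 and Oas3 in 6 of the 11 clusters with at least 30 cells of each library. Oas1a has near-identical copies, so its count is uncertain. Ifit1, which binds foreign RNA ends, stood at 3.93 and 2.84 CPM (-0.47, -0.79 to -0.15), and Ifit2 at 4.80 and 4.75 CPM. Xaf1, an apoptosis-promoting factor, was lower in 6 of 6 classes (-0.99 to -0.12), with 2 intervals below 0. Samd9l was higher in 4 of 4 (0.06 to 0.38), but every interval included 0. It was lower in 5 of the 11 clusters with at least 30 cells of each library.

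The directions were also counted by response element match. Of 13 genes with a match that passed the UMI minimum 9 were lower at equal class weight, with a median of -0.32 and a range from -1.58 (Bst2) to 0.36 (Stat2). Of 11 without a match 9 were lower, with a median of -0.21. No difference between these 2 groups was tested. Bst2, Isg15, Trim30a and Oas3 all hold the letters and stood at different points of this range.

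Many interferon transcripts were concentrated in few cells. For each gene the share of its UMIs in its 10 highest cells was taken and set beside all genes of a like UMI total, since the share falls as counts grow. Among genes with 200 to under 500 UMIs in wild type, the 9 interferon genes had a median share of 11.5%, against 6.57% for 1679 genes, and 6 of the 9 lay above the 95th percentile of 10.5%. With 500 to under 2000 UMIs, the median was 4.24% over 17 genes, against 3.22%, and 4 lay above the 95th percentile of 4.98%. In the knock-in the medians were 9.66% over 7 genes against 6.45%, and 4.44% over 15 genes against 3.33%. Some high cells were shared between genes. For 10 strongly inducible genes, 70 cells in each library held 2 or more UMIs of a gene and were among its 10 highest. Of these, 19 wild-type and 17 knock-in cells were so for 2 or more of the genes.

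Iigp1 had the largest share in 10 cells. In wild type 23.3% of its 262 UMIs lay in 10 cells, and 35 cells held 50% of them. In the knock-in 63.9% of its 83 UMIs lay in 10 cells, 5 cells held 50% of them, and 1 cell held 19. Without the 3 highest cells of each library, its log2 ratio over all cells went from -1.10 to -1.69, and in early erythroid cells from -0.37 to -2.09. Rsad2 had 19.1% and 30.9% of its UMIs in 10 cells and Ifit1 17.8% and 29.0%. Ifi44 had 14.3% and 17.0% and Isg15 11.5% and 14.6%. The knock-in share of Ifi44 lay under the 95th percentile of 24.4% for genes with a like total. Genes with few UMIs, such as Zbp1 (16.0% and 20%) and Oas2 (22.0% and 18.9%), also had high shares, but these lay under the 95th percentile of genes with a like total. Oas1a (3.93% and 9.77%) and Bst2 (1.86% and 2.88%) had lower shares, also under the 95th percentile of genes with a like total. Ifit2 had 6.47% in wild type, near the median of 6.57% for such genes. In the knock-in it had 9.66%, just under their 95th percentile of 9.82%.

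**Figure D3:**
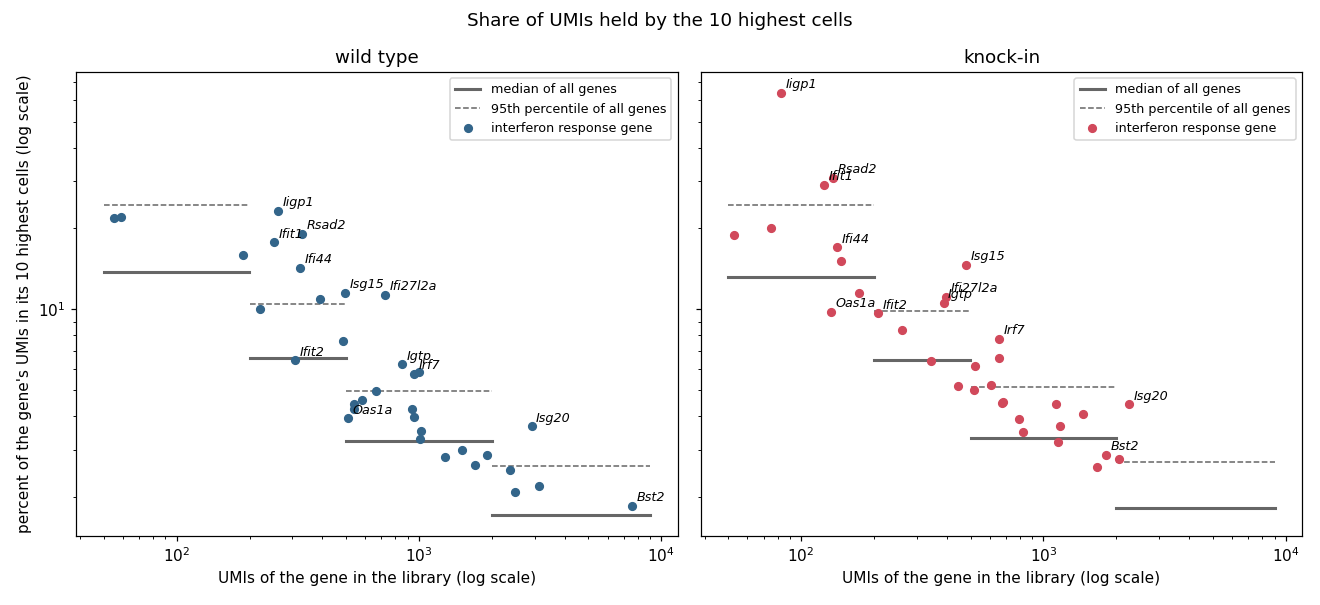
Percent of each gene's UMIs in its 10 highest cells (vertical axis, log scale) against the gene's UMIs in the library (horizontal axis, log scale), wild type left and knock-in right. Solid and dashed grey lines give the median and 95th percentile of all genes in each UMI range; Iigp1, Rsad2 and Ifit1 stand above the dashed line in both libraries, while Oas1a and Bst2 lie under it.

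A small group of cells expressed many of these genes together. A core of 11 strongly inducible genes (Ifit1, Ifit2, Ifit3, Isg15, Rsad2, Usp18, Oasl2, Irf7, Rtp4, Zbp1 and Ifi44) was counted in cells thinned to 3000 UMIs, which left out 317 wild-type and 1170 knock-in cells as too shallow. At least 3 core genes were found in 74 of 5172 wild-type cells, or 1.43% (1.13 to 1.79), and in 38 of 4322 knock-in cells, or 0.879% (0.623 to 1.20). The Clopper-Pearson intervals of the libraries overlapped. Without thinning the shares were 6.36% and 3.38%. These cells held 27.1% of all core UMIs in wild type and 21.4% in the knock-in, shares raised by picking the cells through these same genes. They lay in 12 and 9 clusters, which were built without these genes.

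Among the 7 classes, the share was largest in stem and multipotent and lymphoid-primed cells. Stem and multipotent cells had 3.88% (30 cells) in wild type and 2.62% (16 cells) in the knock-in, and lymphoid-primed cells 4.35% (11 cells) and 1.42% (4 cells). Early erythroid cells had 0.441% and 0.365%, 6 cells in each library, and monocyte progenitors 0.301% (3 cells) and 0.256% (1 cell). In knock-in basophil and mast cells there was none among 133 cells, which allows a share of up to 2.26% (3 counts of the total; 2.74% by the exact interval). There was also none among 166 knock-in neutrophil progenitors, which allows up to 1.81% (2.20%). Both limits lie above the wild-type shares of 0.752% and 0.189%. The 18 knock-in late erythroid cells, too few to count as a class, had 2 such cells (11.1%, 1.38 to 34.7). In each of the 7 classes the wild-type share was the higher, and in each the intervals overlapped. Overlap of 2 separate intervals does not by itself place a difference within counting error. In some classes the order turned with the number of core genes asked for. With 4 or more, stem and multipotent cells had 1.29% and 1.31% and monocyte progenitors 0.100% and 0.256%. With 2 or more, monocyte progenitors had 0.602% and 0.769% and neutrophil progenitors 1.13% and 1.20%. Lymphoid-primed cells kept their order, and with 2 or more their intervals were apart, at 14.6% (10.5 to 19.6) and 6.03% (3.55 to 9.48). With 4 or more they had 3.56% (1.64 to 6.65) and 0.709% (0.0860 to 2.54), which overlapped. A plasmacytoid dendritic cell marker was found in 2 of the 74 wild-type and 0 of the 38 knock-in cells with 3 or more core genes, and in 36 of 5098 and 25 of 4284 of the others.

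**Figure D4:**
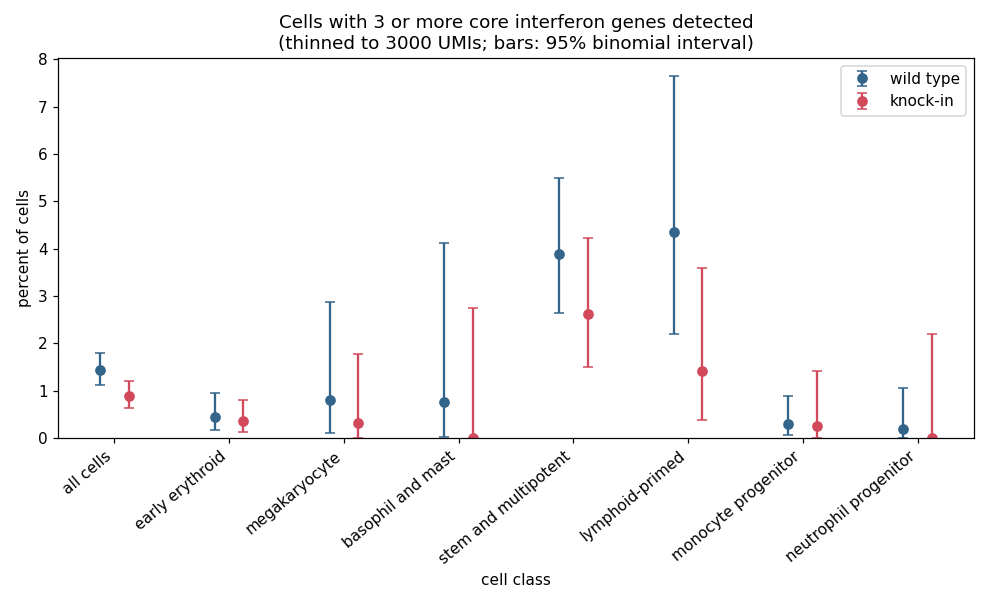
Percent of cells with 3 or more of 11 core interferon genes (vertical axis) over all cells and in 7 classes (horizontal axis), in cells thinned to 3000 UMIs, wild type in blue and knock-in in red. Bars are exact 95% binomial intervals; stem and multipotent and lymphoid-primed cells have the largest wild-type shares, 3.88% and 4.35%.

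Genes outside the core followed it. All 24 non-core genes with 50 or more UMIs were found more often in cells with 3 or more core genes than in cells with none, in both libraries. The median ratio of the 2 shares was 4.98 in wild type and 4.14 in the knock-in. Iigp1 was found in 27.0% of the former and 0.692% of the latter wild-type cells, and in 18.4% and 0.136% of knock-in cells. Bst2 was found in 52.7% and 28.2% in wild type, and in 26.3% and 10.5% in the knock-in, so the lower Bst2 of the knock-in was present in both kinds of cell. Since the core cells came more from some classes, the same was asked within wild-type stem and multipotent cells alone. There 23 of 24 were more frequent in the 30 cells with 3 or more core genes than in the 521 with none, with a median ratio of 3.05, and the intervals were apart for 9. By CPM, all 19 non-core genes with 50 UMIs in those cells were at least 2-fold higher, where 5.05% of all 7380 genes were. In knock-in stem and multipotent cells, with 16 and 463 cells, 23 of 24 were more frequent (median ratio 2.89), the intervals were apart for 5, and 10 of 12 were at least 2-fold higher by CPM, where 6.26% of 5943 genes were. Dtx3l and Bst2 were the 2 under it.

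Within the core, each gene was set against the other core genes only. Ifit1 was found in 32.8% of wild-type cells with 3 or more of the others and 0.616% of those with none, and in 32.4% and 0.487% of knock-in cells. Isg15 (40.7% and 1.36% in wild type) and Oasl2 (40.7% and 2.08%) behaved alike. Ifit2 stood apart, with 4.17% (0.868 to 11.7) and 1.64% in wild type and 2.70% and 1.55% in the knock-in, although it neighbours Ifit1 on chromosome 19. Of the core genes with 50 or more UMIs, 10 of 10 were more frequent beside the others in both libraries.

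Other genes of the pathway, from a list of 35 that excluded the genes above, had a median like that of all genes. Over all cells 24 had 50 or more UMIs, of which 15 were higher and 9 lower in the knock-in, where 60.2% of all genes were higher. Their median was 0.07, and that of all genes 0.07. Only Socs3 was called higher, where 6.69% of all genes were, and Irf8 and Tmem173 were called lower, where 6.54% were. None of the 8 interferon ligands listed had a UMI, except Ifnk with 1. The interferon-gamma receptor chain Ifngr1 stood at 180.2 and 221 CPM (0.29) and the kinase Jak1 at 88.8 and 113 CPM (0.34). The repressor Irf2 stood at 50.02 and 67.2 CPM (0.43), the phosphatase Ptpn6 at 84.5 and 88.7 CPM and the virus-activated factor Irf3 at 41.3 and 49.3 CPM. Irf8, a monocyte lineage factor and a marker used to name the monocyte class, stood at 98.6 and 58.8 CPM (-0.75). In monocyte progenitors, which held most of its UMIs, Irf8 was higher in the knock-in, at 403 and 465 CPM (0.21, 0.13 to 0.29). In stem and multipotent cells it stood at 75.6 and 52.9 CPM (-0.52, -0.77 to -0.27). Tmem173 stood at 50.4 and 50.5 CPM in monocyte progenitors and at 65.2 and 39.6 CPM in lymphoid-primed cells. Of the 22 listed genes counted in stem and multipotent cells, 11 were higher and 11 lower.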

How the data were processed

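The authors deposited unnormalised UMI counts (genes by cell barcodes) for 1 wild-type and 1 knock-in library; the software version 3.1.0 is named per the file headers, and Cell Ranger and mm10 per the submitters' processing notes. Labels name a v2 3' kit and a target of 6000 cells. The deposited counts held 7471 and 6640 barcodes with 70543211 and 48005467 UMIs, none under 500 UMIs. Of these barcodes 23.0% and 11.4% were over the mitochondrial limit used here.

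The cell filter asked for 500 genes, 1000 UMIs and no more than 10% of UMIs from mitochondrial genes. Doublet calling (Scrublet in scanpy 1.11.5) flagged 2.59% of cells in wild type. In the knock-in it flagged 0.0692%, less than the 0.5% required, so the highest 5% of scores were dropped there. Cells of both libraries were clustered jointly, with no batch correction, on 2000 variable genes, 30 components and 15 neighbours, with Leiden (leidenalg 0.10.2) at resolution 1. Interferon and pathway genes, Gata1, sex-linked, mitochondrial and ribosomal protein genes were not used. Clusters were named by marker lists; early and late erythroid markers counted as 1 lineage. Unnamed clusters of 200 or more cells were split once at resolution 0.3, and a name needed a score of 0.8; both were set after the clusters were seen. The gene set and lists were chosen with earlier results of these data known.

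Summed UMIs of each library and class were scaled to CPM (counts per 1000000). Levels have exact Poisson, shares Clopper-Pearson and ratios conditional binomial 95% intervals (scipy 1.17.1), and a count of 0 was replaced by 3 UMIs in a ratio. A class needed 100 cells in each library and a gene 50 UMIs. Free RNA was neither estimated nor removed. Calculations were tested on simulated data. Genes given values were, in each class, the 4 with the most UMIs and those 2-fold or more apart; others were named after their values were seen. Of the pathway list, 1 gene is not reported here. Gene positions are from GENCODE M21 and sequences from RefSeq. Ifit1, Oas1a, Trim30a, Ifi27l2a, Igtp, Iigp1 and Mx1 have close copies, so their counts are uncertain.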

Additional observations from a re-analysis of the deposited data

How the results depend on the processing

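No paired analysis was possible because each genotype has 1 library, and for the same reason no library could be left out. Alternatives were other cell filters, doublets kept, Leiden resolution 0.6 or 1.6, placing knock-in cells on the clusters of wild type, erythroid markers counted apart, interferon genes allowed in clustering, per-cell means, the 3 highest cells left out, median-of-ratios size factors and a minimum of 1 UMI. Clusters with 30 or more cells in each library, equal class weights and sums without Bst2 were added after seeing the data. Of 105 alternative values of the medians and shares, 95 moved by less than their error (for a median, the median width on either side of its genes' intervals). The early erythroid median was -0.47 under the stricter cell filter, against -0.09. The median over all cells was -0.36 with equal class weights, against -0.06. Over clusters with 30 or more cells in each library, these 2 medians were 0.03 and 0.03. The median stayed below 0 in 13 of 13 alternatives for megakaryocyte (-0.61 to -0.15), basophil and mast (-0.65 to -0.13), lymphoid-primed and monocyte progenitor cells, and in 9 of 9 for stem and multipotent cells (-0.43 to -0.23). It came close to 0 in lymphoid-primed cells under the looser cell filter (-0.016, against -0.40) and in monocyte progenitors with interferon genes allowed in clustering (-0.0055, against -0.26). In neutrophil progenitors it was below 0 in 2 of 9. Without Bst2 the summed level was 444 and 438 CPM in early erythroid, 322 and 293 CPM in monocyte progenitor, and 332 and 347 CPM in neutrophil progenitor cells. The share of cells with several core genes was 6.36% and 3.38% without thinning, 4.72% and 3.42% with at least 2 core genes, and 0.696% and 0.463% with at least 4. The top 1% of cells held a median of 20.02% and 23.4% of a gene's UMIs. Of 293 single-gene values, 2 moved beyond their error, both of Iigp1 without the 3 highest cells. Of the genes recomputed, Rtp4 and Irgm1 in lymphoid-primed, Irgm1 in megakaryocyte, Oas1a in stem and multipotent and Ifi44 in early erythroid cells lost their 1.5-fold call under an alternative. Other called genes, such as Irf7 and Igtp in lymphoid-primed cells, were not recomputed one by one. Stem and multipotent cells gave no value under the stricter or looser filter, resolution 0.6 or placement on wild-type clusters, where no cluster took that name. Neutrophil progenitors gave none under 4 alternatives with fewer than 100 knock-in cells.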

Other observations

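The lower level of Bst2 was not shared by the genes around it. Of 21 genes with 50 or more UMIs within 250 kb, none was 1.5-fold lower over all cells, 6 were 1.5-fold higher, and the log2 ratios ran from -0.23 (Plvap) to 2.81 (Tmem221). Of all genes, 6.54% were called lower and 6.69% higher over all cells, so none lower among 21 lies near the usual share. Ocel1 had 1169 UMIs in wild type and 2383 for the knock-in (log2 ratio 1.59, 1.49 to 1.69), and Mvb12a, next to Bst2, had -0.10. Around Oas1a, Oas1g, a close copy of it, had 56 and 8 UMIs, a log2 ratio of -2.25 (-3.53 to -1.17), and Oas1c had 184 and 123 UMIs (-0.02). Cxcl10, an interferon-induced chemokine outside the list, had 402 and 125 UMIs over all cells, or 6.25 and 2.87 CPM. In neutrophil progenitors it had 104 UMIs in wild type and 0 in the knock-in, where a count of 0 allows up to 3 UMIs. Cxcl10 lay in few cells, which this counting limit does not cover. In wild type it was found in 6 of the 74 cells with 3 or more core genes and 31 of the 5098 others. In monocyte progenitors, where it had the most UMIs, it had 149 and 56 UMIs, or 12.4 and 13.9 CPM. In early erythroid cells it stood at 1.31 and 1.95 CPM.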
